A study of Mus musculus with 4 samples.

Results

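The coreceptors CD4 and CD8 decide which class of MHC molecule a thymocyte's T cell receptor (TCR) is helped to read, and 9 genes around them were followed here in sorted mouse thymocytes. They were listed by name: the coreceptor genes Cd4, Cd8a and Cd8b1, the lineage regulators Zbtb7b, Runx3, Gata3 and Patz1, and Itgae and Nkg7, which are expressed in CD8-lineage cells. These are 9 of the 33696 genes in each expression matrix. Each was read at 3 maturation states and in the 2 genotypes, alone and together with the coreceptors in the same cell.

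Thymocytes of Cd4Cre mice (WT) were set against those of Cd4Cre Cgasfl/fl mice (Cgas KO), which lack cGAS, a sensor of cytosolic DNA, wherever the Cre recombinase has acted. Both groups carry the Cre transgene, which is driven by Cd4 sequences and starts to act before thymocytes choose a lineage, so the deletion is not confined to CD4 cells. The labels give neither the age of the mice nor how many animals went into a library. The labels call the cells CD4+CCR7+, and the protocol names CCR7, a chemokine receptor that thymocytes gain after positive selection, as the sorted marker. Each genotype has 1 droplet gene expression library and 1 TCR library, so genotypes were compared by size alone, without a test or a replicate check. All intervals are exact 95% intervals and cover counting error only.

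As background, a thymocyte first carries both coreceptors and then keeps CD4 or CD8 after selection on MHC class II or class I. Zbtb7b encodes ThPOK, the factor that commits cells to the CD4 lineage and represses Runx3. Runx3 commits cells to the CD8 lineage, silences Cd4 and sustains Cd8a. Gata3 acts upstream of Zbtb7b, and Patz1 (MAZR) binds Cd8 and Zbtb7b regulatory sequences. Itgae encodes CD103, an integrin of CD8-lineage thymocytes, and Nkg7 encodes a granule protein of cytotoxic cells.

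Both Cd8 genes neighbour each other on chromosome 6, Cd8b1 (ENSMUSG00000053044) at chr6:71322788-71337492 and Cd8a (ENSMUSG00000053977) at chr6:71373427-71379171, with Cd4 (ENSMUSG00000023274) at chr6:124864693-124888247. The regulators lie at chr3:89377644-89393673 (Zbtb7b, ENSMUSG00000028042), chr4:135120645-135177990 (Runx3, ENSMUSG00000070691), chr2:9857078-9887953 (Gata3, ENSMUSG00000015619) and chr11:3289131-3309083 (Patz1, ENSMUSG00000020453). Itgae (ENSMUSG00000005947) lies at chr11:73090505-73147449 and Nkg7 (ENSMUSG00000004612) at chr7:43437138-43438246. Positions are those of RefSeq on GRCm38.p6.

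The 250 bases before the start of Runx3, Nkg7, Zbtb7b and Cd8a are shown because Runx3 and Nkg7 were detected together with Cd8a, and Zbtb7b apart from it, in the results that follow. RefSeq entries (GRCm38.p6) matched 6 of the 9 genes, with none for Cd4, Cd8b1 or Itgae. Each is given 5′ to 3′ on the gene's own strand, and capitals mark the Runx-type words TGTGGT or TGCGGT, searched on both strands (reverse complements ACCACA and ACCGCA).
Runx3, chr4:135120395-135120644, plus strand, upstream of 2 listed starts: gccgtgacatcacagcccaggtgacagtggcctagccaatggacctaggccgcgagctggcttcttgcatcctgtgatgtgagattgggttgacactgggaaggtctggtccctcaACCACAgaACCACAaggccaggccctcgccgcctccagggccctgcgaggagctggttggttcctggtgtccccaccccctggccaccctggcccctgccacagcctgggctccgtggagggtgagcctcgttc
Nkg7, chr7:43436888-43437137, plus strand: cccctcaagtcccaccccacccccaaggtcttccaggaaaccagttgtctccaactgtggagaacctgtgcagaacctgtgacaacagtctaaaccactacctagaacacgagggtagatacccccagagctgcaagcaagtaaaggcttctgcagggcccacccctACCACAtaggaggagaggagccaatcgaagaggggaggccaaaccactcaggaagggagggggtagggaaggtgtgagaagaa
Zbtb7b, chr3:89387672-89387921, minus strand, downstream of 2 listed starts: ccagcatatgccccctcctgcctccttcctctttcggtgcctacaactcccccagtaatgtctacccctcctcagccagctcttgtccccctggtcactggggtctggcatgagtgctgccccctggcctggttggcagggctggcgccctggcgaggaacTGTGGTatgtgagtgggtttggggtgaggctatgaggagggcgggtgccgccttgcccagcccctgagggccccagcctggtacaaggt
Cd8a, chr6:71373177-71373426, plus strand: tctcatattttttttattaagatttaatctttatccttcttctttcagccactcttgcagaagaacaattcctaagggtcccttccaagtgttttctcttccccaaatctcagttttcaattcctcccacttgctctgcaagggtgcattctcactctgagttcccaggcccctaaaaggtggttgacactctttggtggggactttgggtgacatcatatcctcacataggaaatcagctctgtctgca
The Runx3 window held 2 matches, beginning 134 and 126 bases before the start, the Nkg7 window 1 (83 bases before) and this Zbtb7b window 1 (89 bases before). No match was found in the Cd8a window, in the other Runx3 and Zbtb7b windows, or in those of Gata3 and Patz1. Of 32851 mouse windows of the same length, 18.6% held at least 1 match, so a match here is a description and not a binding site. The counts are per gene and do not tell the alternative starts apart.

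After a minimum of 2000 UMIs (unique molecular identifiers, the count of captured transcripts) and 500 genes and at most 10% mitochondrial UMIs, 12929 WT and 14381 Cgas KO cells remained, with medians of 4943 and 4507 UMIs. The libraries share 276 barcodes, 2.13% and 1.92% of their cells. Markers of T cells summed to 4700 and 4568 CPM (counts scaled to the same total in each group of cells), dendritic cell markers to 187 and 169 CPM, B cell markers to 5.88 and 5.50 CPM and macrophage markers to 3.76 and 0.582 CPM. Of the 4 markers of innate-like T and NK cells in the matrices 1, Ncr1, was at 0 in both libraries, and their sum was 7.83 and 8.91 CPM. Red cell genes summed to 1.73 and 63.0 CPM, and in Cgas KO 10 cells held 93.8% of the Hbb-bs UMIs. Cgas itself came to 4.49 CPM (WT) and 2.92 CPM (Cgas KO), a ratio of 0.651 (0.547 to 0.773). The labels do not name the floxed exons, and counts per gene can still come from a deleted allele, so this level does not measure the deletion.

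Cells were divided by 2 genes. Rag1-positive cells have at least 1 UMI of Rag1, a recombinase gene of immature thymocytes: 545 in WT and 501 in Cgas KO. S1pr1-negative cells have neither Rag1 nor S1pr1, the receptor that mature thymocytes use to leave the thymus: 7942 and 8967. S1pr1-high cells have at least 2 S1pr1 UMIs and no Rag1: 2575 and 2885. A further 1867 and 2028 cells with exactly 1 S1pr1 UMI lie just outside. In these, Cd8a came to 69.2 and 65.0 CPM and Nkg7 to 18.8 and 12.9 CPM, between the S1pr1-negative and S1pr1-high values. Genes that the division did not use were ordered alike: Arpp21 and Dntt, both of immature thymocytes, stood at 882 and 772 CPM in WT Rag1-positive cells and at 8.19 and 11.04 CPM in S1pr1-high cells.

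The coreceptor genes parted with maturation. In WT, Cd8a stood at 979 CPM in Rag1-positive, 208 in S1pr1-negative and 39.7 in S1pr1-high cells, and in Cgas KO at 1012, 186 and 43.7 CPM. Cd8b1 stood at 1351, 181 and 67.2 CPM in WT and at 1351, 177 and 66.4 CPM in Cgas KO. Cd4 stood at 413, 248 and 249 CPM in WT and at 378, 260 and 249 CPM in Cgas KO. From the S1pr1-negative to the S1pr1-high state Cd8a was 5.24-fold lower in WT and 4.26-fold lower in Cgas KO, and Cd8b1 2.70-fold and 2.66-fold lower, while the Cd4 ratio was 1.004 (0.968 to 1.04) and 0.961 (0.927 to 0.995). Within such a sum of cells, fewer cells with a gene and less RNA per cell cannot be told apart from the level alone.

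**Figure D1:**
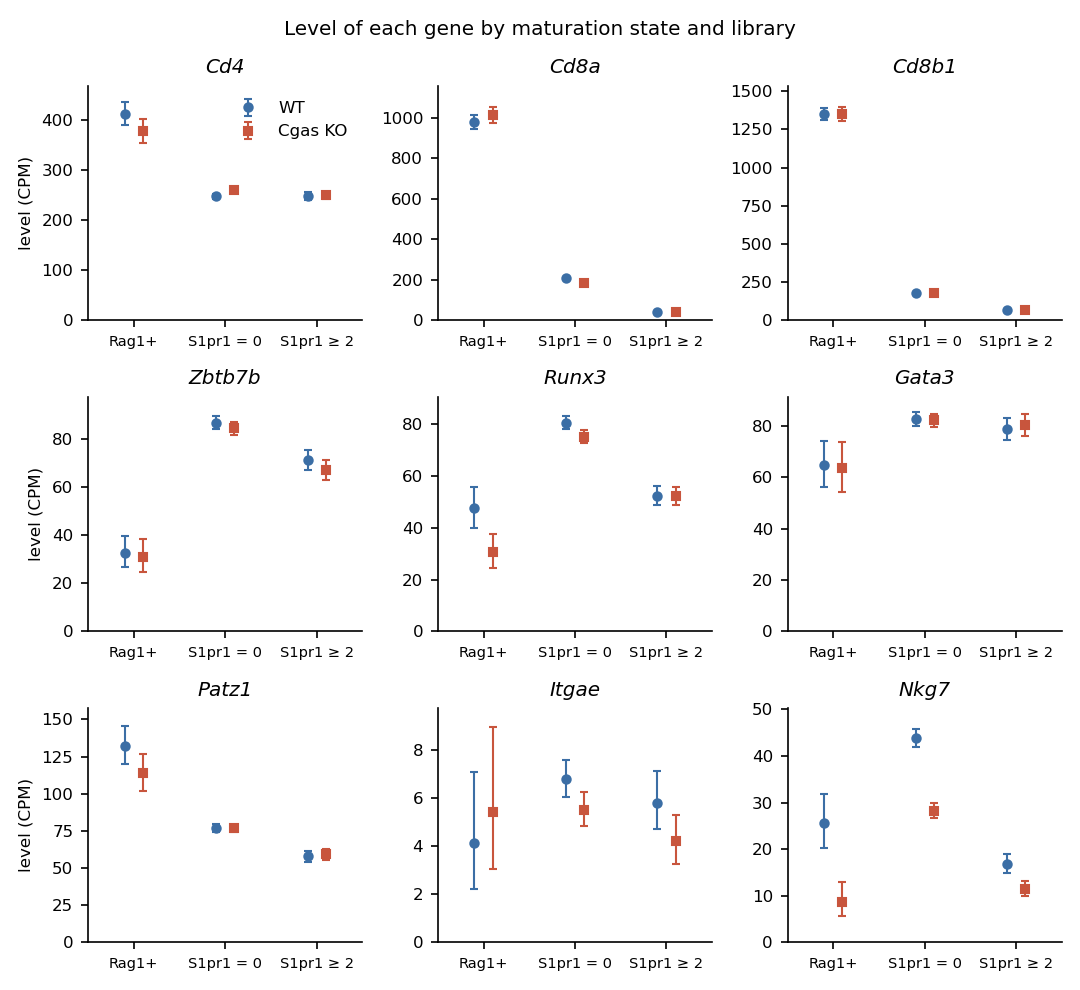
Level of each of the 9 genes in CPM (linear axes from 0, a different scale in each panel) by maturation state, with WT as circles and Cgas KO as squares; bars are exact 95% Poisson intervals of 1 library each. Cd8a and Cd8b1 step down with maturation while Cd4 is level after the Rag1-positive state, and the Nkg7 squares lie below the circles, with bars that do not overlap, in all 3 states.

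Among the regulators, Zbtb7b was lowest in the Rag1-positive cells, at 32.7 CPM in WT and 31.2 in Cgas KO. It reached 86.9 and 84.5 CPM in S1pr1-negative cells and 71.2 and 67.1 CPM in S1pr1-high cells. Runx3 followed the same order in WT, with 47.4, 80.5 and 52.4 CPM; in Cgas KO its 30.4, 75.0 and 52.2 CPM put the Rag1-positive cells lower. Gata3, at 64.7, 82.6 and 78.7 CPM in WT and 63.4, 82.1 and 80.2 CPM in Cgas KO, did not differ between its S1pr1-negative and S1pr1-high levels beyond the counting interval. Patz1 ran the other way, from 132 to 77.0 to 58.0 CPM in WT and from 114 to 76.7 to 59.2 CPM in Cgas KO.

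Of the CD8-lineage genes, Nkg7 was highest in the S1pr1-negative cells. It stood at 25.6, 43.9 and 16.9 CPM in WT and at 8.70, 28.3 and 11.5 CPM in Cgas KO. Itgae was sparse, at 4.16, 6.79 and 5.83 CPM in WT and 5.44, 5.53 and 4.21 CPM in Cgas KO, and in the Rag1-positive cells it rested on 13 and 15 UMIs. A 1.5-fold difference was taken as apart between states. From S1pr1-negative to S1pr1-high cells, 4 of the 9 genes were lower by that measure in WT (Cd8a, Cd8b1, Nkg7 and Runx3) and 3 in Cgas KO, where Runx3 was 1.43-fold lower; none was higher. Over all genes with at least 100 UMIs, 6.52% in WT and 6.58% in Cgas KO were lower and 4.61% and 4.39% higher. Rag1-positive cells set against S1pr1-negative cells had 4 genes higher in WT (Cd4, Cd8a, Cd8b1, Patz1) and 2 in Cgas KO (Cd8a, Cd8b1), beside 13.4% and 14.4% of all genes. Lower were 4 in WT and 3 in Cgas KO (Zbtb7b, Runx3 and Nkg7 in both, Itgae in WT), beside 9.21% and 12.1% of all genes.

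Between genotypes, Nkg7 was the member that differed in every state. Its Cgas KO level over the WT level was 0.340 (0.206 to 0.542) in Rag1-positive, 0.643 (0.599 to 0.691) in S1pr1-negative and 0.679 (0.562 to 0.820) in S1pr1-high cells. After thinning every cell to 2000 UMIs, which removes the difference in depth, an Nkg7 UMI was found in 6.11% of S1pr1-negative cells of the WT library and 3.64% of those of the Cgas KO library (10.1% and 6.38% unthinned). Without thinning, cells with the gene held a mean of 2.48 of its UMIs in WT and 2.25 in Cgas KO, so these means are not matched for depth. In the Rag1-positive cells only 80 WT and 24 Cgas KO UMIs were counted, and the ratio there was 0.105 with Rag1-positive cells drawn at 2 UMIs and 0.396 without the 10 cells richest in Nkg7, a setting chosen after seeing the data. Under either of these Nkg7 had fewer than 100 UMIs in that state, and 1 member instead of 2 was past 1.2-fold lower there. In droplets with 20 to under 200 UMIs, which hold mostly free RNA, Nkg7 came to 37.0 and 22.7 CPM, a ratio of 0.614, so the free RNA moves with the cells; its part in the result was not tested. In the S1pr1-negative cells macrophage markers summed to 5.02 and 0.680 CPM, dendritic cell markers to 220.1 and 195 CPM, B cell markers to 5.46 and 5.29 CPM and markers of innate-like T and NK cells to 5.68 and 7.50 CPM; the part of these in the result was not tested. With S1pr1-high cells drawn at 3 UMIs instead of 2, the ratio was 0.865 (0.659 to 1.14), within counting error of 1.

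Runx3 was lower in Cgas KO in the Rag1-positive cells, at a ratio of 0.642 (0.485 to 0.845), and lay at 0.932 and 0.997 in the later states. Rag1-positive cells of the 2 libraries differed in other ways: their median was 3585 UMIs in WT and 4151 in Cgas KO, 15.8% and 11.2% had no productive TCR beta chain, and macrophage markers summed to 13.4 and 0.725 CPM and markers of innate-like T and NK cells to 35.2 and 41.7 CPM. The part of these in the Runx3 and Nkg7 values was not tested. The minimum of 2000 UMIs also bears on this state, since barcodes just inside it, with 2000 to under 2500 UMIs, were 34.8% Rag1-positive in WT and 12.7% in Cgas KO, and those just outside, with 1500 to under 2000 UMIs, 41.8% and 19.97%.

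Itgae was lower in Cgas KO in S1pr1-negative cells, at 0.814 (0.686 to 0.965), and in S1pr1-high cells, at 0.723 (0.523 to 0.996), whereas cells with exactly 1 S1pr1 UMI gave 1.30 (0.910 to 1.87). In S1pr1-high cells the Itgae ratio was 0.857 without cells with 2 or more beta chains, within 1.2-fold, and 0.670 with S1pr1-high cells drawn at 3 UMIs, on fewer than 100 UMIs. The other measured ratios lay between 0.860 (Patz1, Rag1-positive) and 1.10 (Cd8a, S1pr1-high). A 1.2-fold difference was taken as apart between genotypes. By it 2 members were lower in Cgas KO and 0 higher in each state: of 8 measured in the Rag1-positive cells (Runx3 and Nkg7), and of 9 in the S1pr1-negative and 9 in the S1pr1-high cells (Itgae and Nkg7). With S1pr1-high cells drawn at 3 UMIs, 0 were lower and 1 (Cd8a) higher in that state, and without cells with 2 or more beta chains 1 was lower. Of all genes with at least 100 UMIs, 13.5%, 5.53% and 6.15% were lower and 12.6%, 6.01% and 6.53% higher. Zbtb7b, Gata3, Cd4 and Cd8b1 were within 1.2-fold in all 3 states. The S1pr1-high Cd8a ratio was 1.30 (1.12 to 1.502) with S1pr1-high cells drawn at 3 UMIs and 0.986 without cells with 2 or more beta chains.

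**Figure D2:**
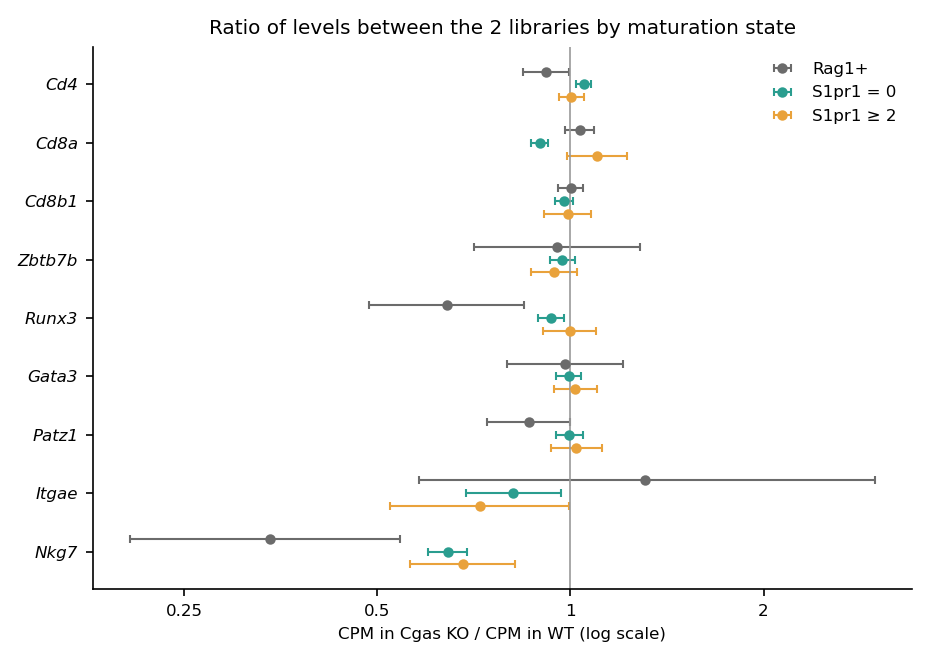
Ratio of the Cgas KO level to the WT level (log axis, 1 marked by a line) for the 9 genes at each maturation state (grey Rag1-positive, green S1pr1-negative, orange S1pr1-high); bars are exact 95% intervals of the counts of 1 library per genotype. Nkg7 lies left of 1 in all 3 states, from 0.340 to 0.679, and Runx3 only in the Rag1-positive cells lies beyond 1.2-fold.

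Cells were then put in coreceptor classes by the UMIs left after thinning to 2000: Cd4 without Cd8 (Cd4-only), both, Cd8a or Cd8b1 without Cd4 (Cd8-only), or neither. Both was the most frequent class of Rag1-positive cells, 54.5% in WT and 49.1% in Cgas KO (76.0% and 70.5% unthinned). S1pr1-negative cells were 31.3% and 33.1% Cd4-only, 5.34% and 5.41% both, and 20.4% and 18.7% Cd8-only. S1pr1-high cells were 36.0% and 34.9% Cd4-only, 3.18% and 3.78% both, and 7.85% and 7.21% Cd8-only. Neither coreceptor was detected in 43.0% and 42.8% of S1pr1-negative cells, and in 16.9% and 18.5% without thinning, so this class depends on depth. For a sort labelled CD4+, Cd8-only cells were thus frequent where no S1pr1 UMI was detected: without thinning they were still 19.5% and 17.8% of S1pr1-negative cells. The Cgas KO share of Cd8-only cells over the WT share was 0.916 (0.855 to 0.981) in S1pr1-negative and 0.919 (0.754 to 1.12) in S1pr1-high cells, both under 1.2-fold. In the Rag1-positive cells class and depth moved together: the median was 2729 and 2885 UMIs for cells with both and 5566 and 5378 for Cd8-only cells, of which 21.7% and 21.6% held 2 or more beta chains.

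Lineage factors divided the S1pr1-negative cells as the coreceptors did. Zbtb7b had a UMI in 19.8% (18.2 to 21.4) of WT Cd4-only cells and 3.397% (2.57 to 4.399) of Cd8-only cells, and in 18.5% and 5.197% in Cgas KO. With another random draw of the thinning the Cgas KO share in Cd4-only cells was 4.75 times that in Cd8-only cells, against 3.56 here. Unthinned, the shares were 41.3% and 8.96% in WT and 36.7% and 10.3% in Cgas KO. Runx3 had a UMI in 9.42% (8.30 to 10.6) of WT Cd4-only and 27.9% (25.7 to 30.1) of Cd8-only cells, and in 8.19% and 26.8% in Cgas KO. Its level was 53.4 and 46.6 CPM in Cd4-only cells against 163 and 176 CPM in Cd8-only cells. Droplets with 20 to under 200 UMIs had 73.4 and 79.0 CPM. The same droplets exceeded Cd4-only cells for Zbtb7b (115 and 119 against 109 and 102 CPM) and Gata3 (102 and 98.6 against 90.8 and 90.7 CPM). Patz1 did likewise (79.8 and 81.3 against 76.1 and 73.4 CPM). Such CPM give the make-up of these droplets and not the amount of free RNA in a cell. For Runx3, Zbtb7b, Gata3 and Patz1 the level alone does not tell expression in Cd4-only cells from free RNA. The part of free RNA was not tested. Gata3 leaned to Cd4-only cells, at 90.8 against 57.0 CPM in WT and 90.7 against 52.5 CPM in Cgas KO. Patz1 leaned slightly to Cd8-only cells, 1.18-fold in WT and 1.29-fold in Cgas KO.

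Nkg7 and Itgae were concentrated in the Cd8-only class. Nkg7 had a UMI in 22.4% of WT and 15.2% of Cgas KO Cd8-only cells against 1.21% and 0.506% of Cd4-only cells, and Itgae in 3.95% and 3.41% against 0.241% and 0.135%. The Cd4-only shares are near those of Rag1-positive cells with Cd4, Cd8a and Cd8b1 together, which served as a background: 0.758% and 0.474% for Nkg7 and 0% (0 of 264 cells, exact upper limit 1.39%) and 0.474% for Itgae, at median depths of 2632 and 2668 UMIs. Whether all of these sorted cells had yet to choose a lineage was not tested. In the same background Zbtb7b was at 2.27% and 1.42% and Runx3 at 5.30% (2.93 to 8.74) and 2.37% (0.774 to 5.44). The WT Runx3 interval overlaps that of the WT Cd4-only cells, whereas the Cgas KO interval lies below the Cgas KO Cd4-only share given above. By a 1.5-fold difference in CPM, 2 of the 6 factors were higher in Cd4-only cells (Zbtb7b 4.71-fold in WT and 3.52-fold in Cgas KO, Gata3 1.59-fold and 1.73-fold) and 3 in Cd8-only cells (Runx3 3.05-fold and 3.77-fold, Nkg7 19.996-fold and 38.9-fold, Itgae 29.2-fold and 24.1-fold). Of all genes 4.98% in WT and 3.46% in Cgas KO were higher in Cd4-only cells and 3.75% and 3.06% in Cd8-only cells. The classes were formed on the coreceptor genes alone.

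**Figure D3:**
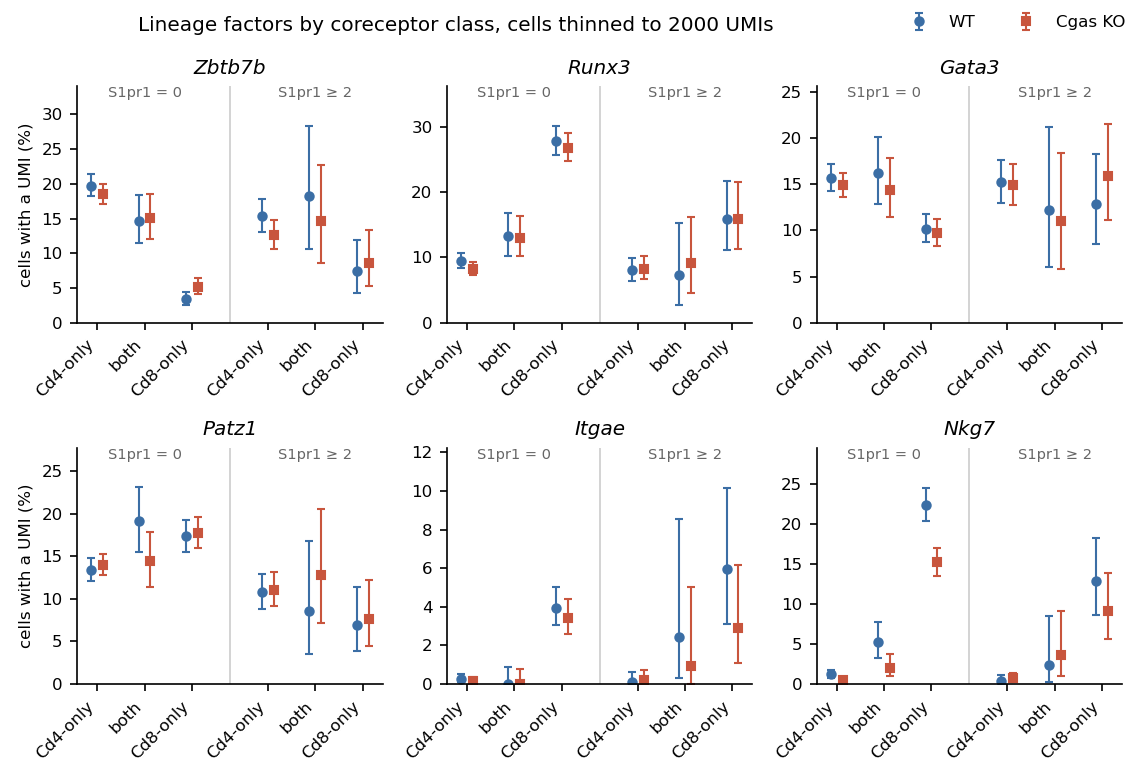
Share of cells with a UMI of each of 6 lineage factors (percent, linear axes from 0) in Cd4-only, both and Cd8-only cells of the S1pr1-negative (left of each panel) and S1pr1-high (right) states, cells thinned to 2000 UMIs; circles are WT, squares Cgas KO, bars exact 95% Clopper-Pearson intervals over cells of 1 library. Zbtb7b is lowest and Runx3 and Nkg7 highest in Cd8-only cells, and the contrast for Zbtb7b is smaller in the S1pr1-high state.

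In the S1pr1-high state the classes differed less in Zbtb7b and Runx3 levels, though this change with state was not tested. Classes were set by thinned UMIs, and unthinned Cd8-only cells still held Cd4 UMIs. Cd4 stood at 116 (WT) and 133 CPM (Cgas KO) in S1pr1-high Cd8-only cells, against 63.0 and 65.2 CPM in S1pr1-negative ones. S1pr1-high cells with neither coreceptor had 164 and 157 CPM. The part of cells with undetected Cd4 in the smaller difference was not tested. Zbtb7b was 1.77-fold (1.36 to 2.33) higher in Cd4-only cells in WT and 1.19-fold (0.932 to 1.53) in Cgas KO, and Runx3 1.89-fold and 1.90-fold higher in Cd8-only cells. The Cd4-only level over the Cd8-only level was 1.24 and 1.16 for Gata3 and 1.06 and 1.08 for Patz1. Nkg7 remained 43.0-fold and 16.5-fold higher in Cd8-only cells, and Itgae had fewer than 100 UMIs in these classes. Counted by the 1.5-fold difference, 1 of 5 measured factors was higher in Cd4-only cells in WT and 0 in Cgas KO, beside 2.88% and 2.22% of all genes, and 2 were higher in Cd8-only cells in each library, beside 1.51% and 1.25%. Only 202 and 208 cells make up the S1pr1-high Cd8-only class, of which 19.3% and 15.9% had 2 or more beta chains, against 10.9% and 12.7% of the Cd4-only class; the part of such barcodes was not tested here. Among Rag1-positive cells the Cd4-only class held 34 cells in each library, too few to measure most factors.

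Within the Cd8-only S1pr1-negative cells Nkg7 came to 167 and 124 CPM, a ratio of 0.742 (0.684 to 0.804), so the difference between libraries was also there when the class was held fixed. Runx3 in the same cells was at 1.08 (0.999 to 1.16) and Itgae at 0.903 (0.744 to 1.09). Zbtb7b came to 23.1 and 29.0 CPM, a ratio of 1.25 (1.04 to 1.52), which was 1.14 (0.940 to 1.39) with another random draw of the thinning. This ratio was 1.04 (0.855 to 1.26) with the cell minimum and the thinning depth both raised to 3000 UMIs. With classes by 2 or more UMIs it was 1.60 (1.06 to 2.42). In this class, 6.86% of all genes were at least 1.2-fold lower in Cgas KO and 7.68% higher. Cd4-only S1pr1-high cells had Zbtb7b at 82.1 and 67.8 CPM (0.825, 0.719 to 0.946).

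The Cd8-only class was not uniform. Split by the Cd8 chain detected, a division chosen after values had been seen, S1pr1-negative cells with Cd8a and Cd8b1 and no Cd4 (834 in WT, 836 in Cgas KO) had Zbtb7b in 1.199% (0.576 to 2.19) and 2.03% (1.19 to 3.24), Runx3 in 31.5% and 31.6%, and Nkg7 in 28.3% and 20.8%. Cells with Cd8b1 and neither Cd8a nor Cd4 (391 and 476) had Zbtb7b in 9.21% (6.53 to 12.5) and 10.1% (7.53 to 13.2), Runx3 in 23.02% and 19.1%, and Nkg7 in 14.1% and 6.51%. In S1pr1-negative cells with Cd8a alone (394 and 362) Zbtb7b was in 2.28% and 6.08%, Runx3 in 24.9% and 25.7% and Nkg7 in 18.0% and 13.8%. Among S1pr1-high cells with both chains and no Cd4, Zbtb7b was found in 0 of 45 (WT) and 0 of 38 (Cgas KO), with exact upper limits of 7.87% and 9.25%, but in 9.17% and 10.9% of cells with Cd8b1 alone, and Runx3 in 28.9% and 28.9% against 11.7% and 8.53%. Cells with Cd8a alone (37 and 41) had Zbtb7b in 10.8% and 9.76% and Runx3 in 13.5% and 26.8%. Zbtb7b shares with Cd8a alone thus lay near those with both chains in WT S1pr1-negative cells and near those with Cd8b1 alone in S1pr1-high cells. Cells with Cd8b1 alone made up 120 of the 202 WT and 129 of the 208 Cgas KO S1pr1-high Cd8-only cells.

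**Figure D4:**
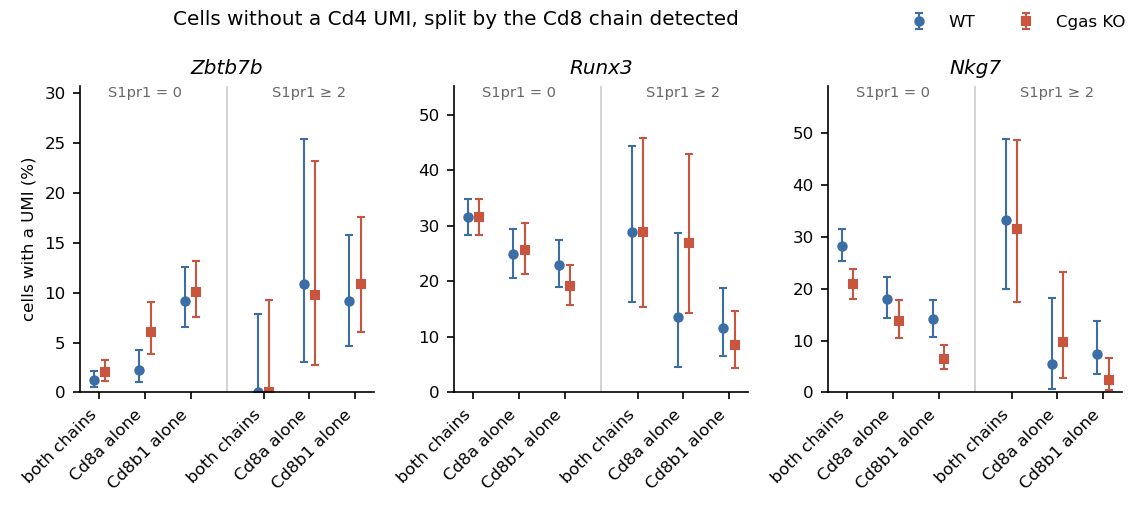
Share of cells with a UMI of Zbtb7b, Runx3 and Nkg7 (percent, linear axes from 0) among cells without a Cd4 UMI, split by the Cd8 chain detected, for the S1pr1-negative (left) and S1pr1-high (right) states; circles are WT, squares Cgas KO, bars exact 95% Clopper-Pearson intervals over cells of 1 library. Zbtb7b is at 1.199% and 2.03% in S1pr1-negative cells with both chains and at 9.21% and 10.1% with Cd8b1 alone, and Runx3 and Nkg7 are highest with both chains.

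Over whole states, which neither Cd8 gene defines, Cd8b1 UMIs per Cd8a UMI, a ratio of counts and not of transcripts, came to 1.38 (1.32 to 1.45) in WT and 1.34 (1.27 to 1.40) in Cgas KO Rag1-positive cells. The ratio was 0.870 (0.844 to 0.896) and 0.949 (0.920 to 0.978) in S1pr1-negative cells and 1.69 (1.53 to 1.87) and 1.52 (1.38 to 1.67) in S1pr1-high cells. It was thus lowest in the S1pr1-negative state in both libraries.

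Co-detection in single cells was compared with the number expected if 2 genes were independent within a state; cells of 1 library share their source, so this is a description. In S1pr1-negative cells Cd4 and Cd8a were found together in 181 WT and 212 Cgas KO cells, 0.351 and 0.391 of the expected number, whereas in Rag1-positive cells the values were 1.07 and 1.09. Cd4 with Cd8b1 reached 0.585 and 0.588. Zbtb7b was detected with Cd4 in 553 and 621 cells, 1.23 and 1.201 of expectation, and with Cd8a in 40 and 63 cells, 0.183 and 0.298; with Cd8b1 it was at 0.372 and 0.488. Runx3 was at 1.999 and 2.20 with Cd8a, 1.84 and 1.90 with Cd8b1, and 0.724 and 0.708 with Cd4. Nkg7 was at 3.77 and 4.49 with Cd8a and 0.293 and 0.199 with Cd4, and Itgae at 4.06 and 4.41 with Cd8a. Gata3 was under expectation with Cd8a (0.719 and 0.641) and Patz1 over it (1.19 and 1.23).

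The factors themselves separated only in part. Zbtb7b and Runx3 were detected together in 106 WT and 103 Cgas KO S1pr1-negative cells, 0.625 and 0.612 of expectation, and in S1pr1-high cells in 33 and 31, at 1.11 and 1.02. Zbtb7b with Gata3 was at 1.24 and 1.19 in the S1pr1-negative cells, and Runx3 with Nkg7 at 2.40 and 2.28. In S1pr1-high cells Cd8a with Nkg7 reached 8.60 and 13.6 of expectation, on 17 and 20 cells, and Cd8a with Itgae 15.3 and 9.75, on 12 and 7 cells. In Rag1-positive cells Runx3 with Cd8a was at 0.908 and 0.642, on 26 and 8 cells.

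**Figure D5:**
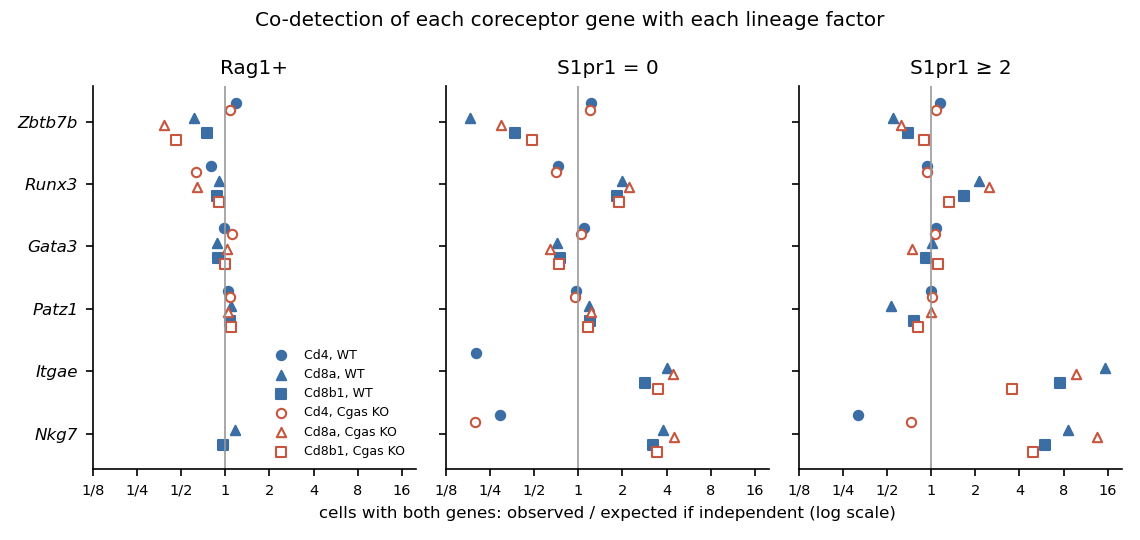
Cells with a UMI of both genes, divided by the number expected if the genes were independent within the state (log axis, 1 marked by a line), for Cd4 (circles), Cd8a (triangles) and Cd8b1 (squares) with 6 lineage factors; WT is filled, Cgas KO open, and pairs found together in fewer than 5 cells are not drawn. In S1pr1-negative cells Zbtb7b with Cd8a lies at 0.183 and 0.298 and Nkg7 with Cd8a at 3.77 and 4.49.

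Other genes of these pathways were read from 4 lists. Of 11 CD4-lineage regulators, 1 of 11 measured was at least 1.2-fold higher in Cgas KO in S1pr1-negative cells and 0 lower, and 1 of 10 higher in S1pr1-high cells; their median log2 ratios were 0.09 and 0.10, against 0.00 and 0.01 over all genes. Over all genes 6.01% and 6.53% were higher and 5.53% and 6.15% lower in these states, and 12.6% higher and 13.5% lower in the Rag1-positive cells, so 1 of 11 and 1 of 10 are near the background. Cd40lg, the CD40 ligand of helper cells, was at 1.2001 (1.16 to 1.24) in S1pr1-negative cells, and Myb at 1.32 (1.16 to 1.499) in S1pr1-high cells. Of the list of Runx partners and CD8-lineage regulators, 2 of 8 measured were lower in each of these states and 0 higher. Id2, an inhibitor of E proteins, was at 0.805 in S1pr1-negative and 0.608 (0.561 to 0.657) in S1pr1-high cells, and Il2rb, a receptor chain for IL-2 and IL-15, at 0.783 and 0.644 (0.590 to 0.704). In the Rag1-positive cells 3 of 8 were lower (Il7r 0.755, Id2 0.758 and Cbfb, the partner of Runx proteins, 0.786) and 1 higher, beside 1 of 10 CD4-lineage regulators lower (Zbtb7a, 0.801) and 0 higher. None of 10 genes of coreceptor and TCR signalling, among them Lck, passed 1.2-fold in any state.

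Cytotoxic-lineage genes had 1 of 6 measured higher and 3 lower in S1pr1-negative cells, 1 of 3 higher and 2 lower in Rag1-positive cells, and 1 of 4 higher and 0 lower in S1pr1-high cells, to be read beside the same shares of all genes. In S1pr1-negative cells Ctsw, a cathepsin of cytotoxic cells, was at 0.788 (0.760 to 0.816), Prf1, the gene of perforin, at 0.687 and Ccl5 at 0.752, while Gzma, a granzyme gene, was at 2.03 on 88 and 181 UMIs. In Rag1-positive cells Ccl5 was at 0.255, Ctsw at 0.660 and Gzma at 1.26 (0.971 to 1.65). In S1pr1-high cells Ctsw was at 0.833 (0.792 to 0.877), just within 1.2-fold, and Ccl5 at 0.890 (0.627 to 1.26). The gene counted higher there, Xcl1, was at 1.24 (0.844 to 1.82) on 51 and 65 UMIs. Between the classes of S1pr1-negative cells, Cd40lg was 3.80-fold and 3.16-fold higher in Cd4-only cells. Myb, of the same list, was 1.98-fold and 1.92-fold higher in Cd8-only cells. Ctsw was 2.73-fold and 2.62-fold higher in Cd8-only cells, and Themis, a TCR signalling protein, 1.60-fold and 1.54-fold higher there. Ccl5 was 1.77-fold higher in Cd8-only cells in WT but 3.25-fold higher in Cd4-only cells in Cgas KO. Id2 and Il7r, which stand in the CD8 list, were higher in Cd4-only cells, Id2 by 1.80-fold and 1.71-fold and Il7r by 1.88-fold and 1.90-fold. Past 1.5-fold, 2 of 11 CD4-list genes were higher in Cd4-only and 1 in Cd8-only cells in both libraries. The CD8 list had 2 and 1 of 8. Of 3 cytotoxic genes, 0 and 3 were so in WT and 1 and 2 in Cgas KO. Of all genes 4.98% and 3.46% were higher in Cd4-only and 3.75% and 3.06% in Cd8-only cells.

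Profiles over 24 groups of cells (library, state and class) were compared by Pearson's r on log2(CPM + 10), among 9360 genes; the groups share libraries and depth, and no p is given. Zbtb7b was most like Cd5 (0.924), Cd40lg (0.918) and Tgfbr3 (0.917). Runx3 was most like Cd226 (0.884), Plekho1 (0.871) and Cd3g (0.851), and Gata3 like Atp8a1 (0.841), Zbtb7b (0.819) and Sytl2 (0.809). Patz1 was most like Hdac7 and Ptprf (both 0.924) and Khdrbs1 (0.903). Itgae and Nkg7 were each other's nearest profile (0.834), followed by Glipr2 (0.714) and Icam1 (0.712) for Itgae and by Myl12a (0.815) and Zyx (0.791) for Nkg7.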

How the data were processed

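The authors deposited unfiltered UMI counts per gene and barcode. Per the file headers the counts come from Cell Ranger 8.0.1, whereas version 7.0 of Cell Ranger stands in the submitters' processing notes, with mm10 and Seurat 5.1.0. The deposited TCR contig tables gave the number of productive beta chains per barcode. Barcodes with at least 2000 UMIs, at least 500 genes and at most 10% mitochondrial UMIs were kept. No doublet caller was run. Counts were summed per library and state and divided by the total (CPM), and shares and classes used cells thinned to 2000 UMIs. Intervals are exact (Poisson, conditional binomial for ratios, Clopper-Pearson for shares). Genes needed 100 UMIs in the groups compared.

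With 1 library per genotype no test was run. The members and lists were chosen with earlier results of these data known. Text names all 9 members, up to 3 genes of each list by distance from a ratio of 1, and the 3 nearest profiles of each factor. Ctsw in S1pr1-negative cells, list genes by class and the split by Cd8 chain were chosen after values were seen. Scripts (scipy 1.17.1, numpy 2.4.6 and pandas 2.3.3 under Python 3.11.15) were tested on simulated data, and edgeR 4.0.16 (R 4.3.3) gave only TMM factors for an alternative scaling.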

Additional observations from a re-analysis of the deposited data

Results flagged for a closer look

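Cd4 moved in opposite directions between genotypes at different maturation states. Its Cgas KO level over the WT level was 1.048 (1.02 to 1.08) in S1pr1-negative cells and 0.915 (0.842 to 0.993) in Rag1-positive cells. Each interval excludes 1 for counting error only, and the difference between the states was not tested.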

How the results depend on the processing

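Over 262 results and 18 alternatives, 2235 values were recomputed. Of these, 2124 stayed within their counting interval or within 1.5 times the count, 107 moved beyond it and 4 changed direction. Direction was judged only where the main ratio passed its fold with an interval excluding 1, or, for co-detection, where the interval excluded 1. Other ratios that crossed 1 were counted as staying or moving, not among the 4. Those 4 were the Cgas KO over WT ratio of Rag1-positive cells with neither coreceptor (0.872 with the cell minimum and the thinning depth both raised to 3000 UMIs), the Runx3 share of Cd4-only over Cd8-only S1pr1-high Cgas KO cells (1.54 with states from thinned UMIs), Cd8b1 with Zbtb7b in Rag1-positive Cgas KO cells (1.11 at 2 or more Rag1 UMIs) and the Nkg7 ratio in Cd8-only S1pr1-high cells (1.08 with S1pr1 at 3 or more UMIs). Members lower in Cgas KO numbered 1 in S1pr1-high cells without cells with 2 or more beta chains, 0 with S1pr1 at 3 or more UMIs (then 1 higher), and 1 in Rag1-positive cells at 2 or more Rag1 UMIs or, chosen after seeing the data, without the 10 cells richest in Nkg7. The Zbtb7b share of Cd4-only over Cd8-only S1pr1-negative cells (5.82 in WT, 3.56 in Cgas KO) was 5.08 in Cgas KO without thinning, 4.75 with another draw, 23.4 and 8.36 with classes by 2 or more UMIs, and 16.5 and 9.09 with Cd8-only by both chains (chosen after seeing the data). The Runx3 share (0.338 and 0.306) was 0.421 and 0.407 without thinning and 0.259 in Cgas KO with both chains. Without thinning, Cd8a with Zbtb7b was at 0.363 and 0.407 of expectation and Cd8a with Runx3 at 1.76 and 1.86; another draw gave 0.206 for Cd8a with Zbtb7b in Cgas KO. The Rag1-positive Cd8-only ratio was 0.754 with both raised to 3000 UMIs. Without a filter on gene UMIs, 9436, 9224 and 8803 genes were 1.2-fold apart in the 3 states, against 1928, 1421 and 1333. The cause was not tested. No paired analysis was possible because each genotype has 1 library, and for the same reason none could be left out.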

Other observations

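A few cells held much of some cytotoxic transcripts. The 10 cells richest in Ccl5, a chemokine gene, held 56.8% of its UMIs in WT and 54.3% in Cgas KO, and the 10 richest in Xcl1, another chemokine gene, 49.1% and 67.8%. For Gzma the values were 38.9% and 54.0%. Nkg7 was spread more widely, with 5.13% and 9.09% of its UMIs in 10 cells and at most 15 and 36 UMIs in 1 cell.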
